A study of Sus scrofa with 9 samples.

Results

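The colony-stimulating factors and their receptors were described in the abdominal aorta of Tibetan minipigs, a small pig breed, as genes chosen by name. The names were the ligands CSF1 and IL34 and the receptor chains CSF1R, CSF2RA, CSF2RB, CSF3R and IL3RA. Of these 7 names, 5 had a row among the 21357 genes of the expression table, and each had 1 row, so no choice by expression level was needed. CSF2RA and IL3RA had no row under those names and were not analysed here. All 5 rows passed the filter on low values in every comparison. The study asked how the vessel's gene expression differs between pigs on a regular diet and pigs with diet-induced hypercholesterolemia or atherosclerosis. RNA-seq was made of 9 aortas in 3 groups of 3 libraries. NC pigs ate a normal diet for 24 weeks. H24 pigs ate a high-fat/cholesterol (HFC) diet for 24 weeks and are labelled as atherosclerosis. H8 pigs ate the high-fat diet for 8 weeks and are labelled as hypercholesterolemia. The pigs of NC and H24 were males a few months of age at purchase, and 3 of the 5 in each of these groups were sequenced. H8 is known here from the sample labels only. NC and H8 differ in time on diet as well as in diet, so that diet and age cannot be told apart in that comparison.

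Colony-stimulating factors are cytokines that keep blood and tissue myeloid cells alive and make them divide and mature. M-CSF, encoded by CSF1, and interleukin-34, encoded by IL34, are unrelated in sequence but bind the same receptor tyrosine kinase, CSF1R, on which most tissue macrophages depend. GM-CSF, interleukin-3 and interleukin-5 each bind an alpha chain of their own and signal through a common beta chain, encoded by CSF2RB. G-CSF acts through CSF3R, a single-chain receptor best known from neutrophils and also present on monocytes. In the artery wall, endothelial cells, smooth muscle cells and macrophages can make CSF1, and CSF1R is used widely as a marker of macrophages.

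One library, H24 replicate 3, stood apart. Total counts ran from 44094263 to 75787978 per library. Across genes, Pearson's r of depth-scaled log2 counts was 0.965 to 0.968 within NC, whereas H24 replicate 3 had an r of 0.913 and 0.883 with the other H24 libraries. The 8 smooth muscle markers summed to 1766 FPKM in H24 replicate 3, against 8277 and 12129 in H24 replicates 1 and 2 and 12042 to 14137 in NC. FPKM is fragments scaled to transcript length and to the mapped total, a level that can be compared between genes. The aorta label is matched by these smooth muscle genes, which were high in all 9 libraries but least so in that one.

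In the normal aorta the family was led by CSF1 and CSF1R. Mean FPKM in NC was 10.7 ± 1.76 (SD, n = 3) for CSF1, 5.11 ± 0.449 for CSF1R, 1.05 ± 0.577 for IL34, 0.600 ± 0.0908 for CSF2RB and 0.255 ± 0.0396 for CSF3R. CSF1 stood above CSF1R and CSF1R above IL34 in every NC library. IL34 and CSF2RB overlapped and in NC replicate 3 were nearly equal, at 0.583 and 0.584 FPKM. CSF3R was the lowest in all 3 libraries, with 50 to 65 counts each. In H24 the order was CSF1R at 56.7 ± 54.2, CSF1 at 35.5 ± 24.0, CSF3R at 19.6 ± 23.7, CSF2RB at 10.8 ± 9.10 and IL34 at 2.87 ± 0.906 FPKM. Neighbours in that H24 order overlapped in range, except IL34, which was below CSF2RB in every library (2.28 to 3.91 against 4.19 to 21.2 FPKM). Within each H24 library CSF1R was above CSF1 and CSF1 above CSF3R. CSF3R was above CSF2RB except in H24 replicate 2 (4.55 against 6.99 FPKM).

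**Figure D1:**
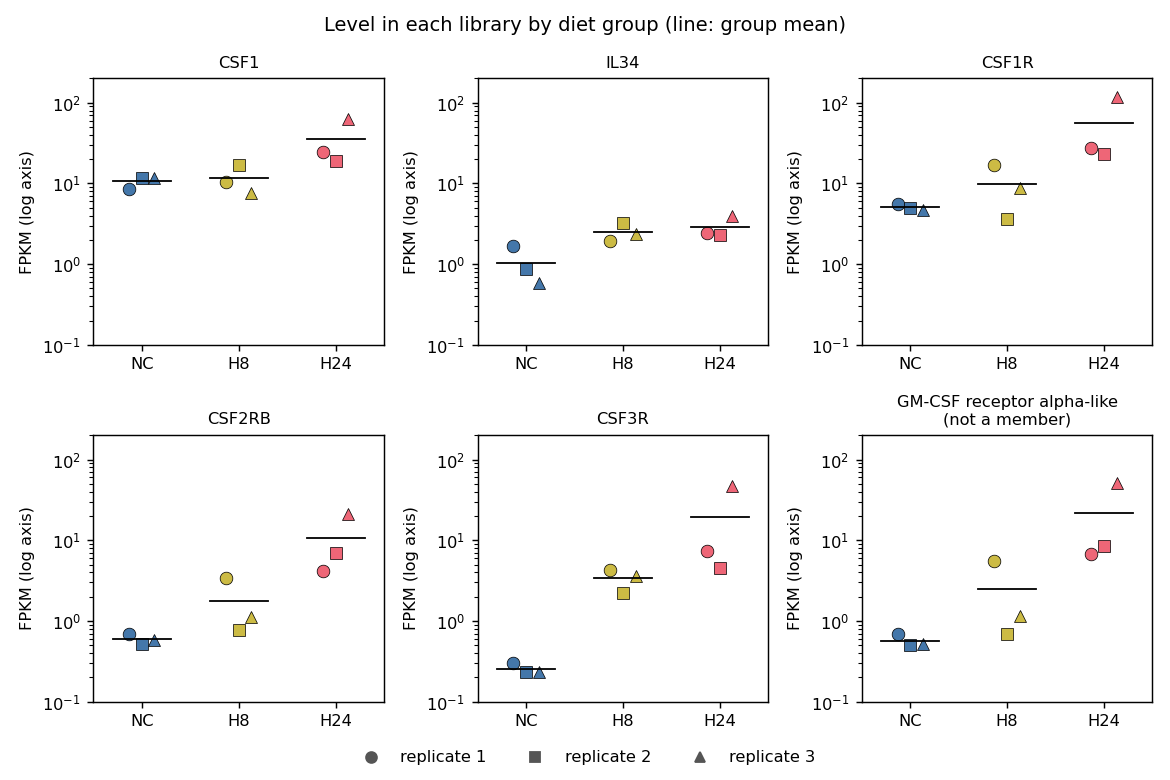
FPKM (log axis) of the 5 family genes and of a row described as GM-CSF receptor alpha-like, for each library of NC, H8 and H24 (symbols give the replicate and lines the group mean). CSF3R lies between 0.232 and 0.301 in NC and between 2.21 and 4.32 in H8, whereas CSF1 in H8 (7.71 to 16.8) spans its NC range of 8.63 to 11.8, and H24 replicate 3 is the highest library in every panel.

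Against NC, all 5 genes were higher after 24 weeks of the HFC diet, with log2 fold changes of 1.44 and 1.71 for the ligands and 3.46 to 6.23 for the receptors. The difference between genes was not tested. A gene was called when its log2 fold change was beyond 1 and its unadjusted p under 0.05 in edgeR's quasi-likelihood test, the thresholds the study used. In H24/NC 5 of 5 genes were called higher and 0 lower, against 9.95% and 1.52% of the 14828 genes tested, and without H24 replicate 3 4 of 5 were called higher, against 6.49%. The 3 H24 libraries were above all 3 NC libraries for 5 of 5 genes, which was true of 12.8% of all genes. After 8 weeks (H8/NC) 3 of 5 were called higher, IL34, CSF2RB and CSF3R, against 5.11% of 14336 genes (2.27% were called lower), and the same 3 genes had non-overlapping groups, against 6.91% of all genes. In H24/H8 4 of 5 were called higher, all but IL34, against 7.22% of 14788 genes (1 of 5 without H24 replicate 3, against 3.75%), and these 4 had non-overlapping groups, against 15.5%. The 3 comparisons share libraries, so their counts are not independent of each other. The median log2 fold change of all genes tested was 0.0080 in H24/NC, 0.015 in H8/NC and 0.044 in H24/H8, and -0.021 in H24/NC without H24 replicate 3. In bulk tissue, more cells of a type and more RNA per cell cannot be told apart.

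After Benjamini-Hochberg adjustment over all genes, edgeR called 0 genes (0.0%) in H24/NC, while 2055 genes (13.9%) had an unadjusted p under 0.05 and DESeq2 called 954 genes at the adjusted threshold. Without H24 replicate 3, edgeR called 306 of 14578 genes (2.1%) at that threshold, and CSF1R, CSF2RB and CSF3R were among them. Each call is therefore given with its adjusted p.

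CSF1, the main growth factor of macrophages, was at 8.63, 11.8 and 11.5 FPKM in NC, 10.3, 16.8 and 7.71 in H8, and 24.3, 19.2 and 63.1 in H24. All H24 libraries were above all others, and H8 spread across the NC range. In H24/NC the log2 fold change was 1.71 ± 0.48 (SE), or 3.28-fold (adjusted p = 0.193). Without H24 replicate 3 it was 0.997 (adjusted p = 0.1002), just short of the fold threshold. In H8/NC CSF1 was not called (log2 fold change 0.28 ± 0.33, adjusted p = 0.732), and the value was -0.17 without H8 replicate 2. In H24/H8 it was called at 1.39 ± 0.54 (adjusted p = 0.342), and without H24 replicate 3 the value was 0.70 (adjusted p = 0.530). The H24/H8 call of CSF1 also ended without H8 replicate 1 (1.28, adjusted p = 0.549) or H8 replicate 3 (1.13, adjusted p = 0.578). The gene lies at chr4:110176300-110198663 on the minus strand (Sscrofa11.1) and overlaps no other gene of the table.

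IL34, the alternative CSF1R ligand, had another time course. It was at 1.69, 0.861 and 0.583 FPKM in NC, 1.92, 3.20 and 2.37 in H8, and 2.41, 2.28 and 3.91 in H24. Every library of either high-fat group was above every NC library, and H8 and H24 overlapped. IL34 rose in H8/NC by a log2 fold change of 1.42 ± 0.45 (adjusted p = 0.240) and in H24/NC by 1.44 ± 0.48 (adjusted p = 0.267). In H24/H8 the value was -0.01 ± 0.37 (adjusted p = 0.993). Without H24 replicate 3 the H24/NC value was 1.15 (adjusted p = 0.431) and IL34 was still called. The calls did rest on single libraries of the other groups. H24/NC was not called without NC replicate 2 (1.34, adjusted p = 0.540) or NC replicate 3 (1.14, adjusted p = 0.599), nor was H8/NC without H8 replicate 2 (1.11, adjusted p = 0.428). The gene, at chr6:13588787-13662753 on the plus strand, overlaps MTSS1L on the opposite strand by 3408 bp, and ENSSSCG00000034132, which was at 0 in every library, on its own strand by 3383 bp. Whether reads were counted by strand is not stated, and MTSS1L was not called in H24/NC (log2 fold change -0.40, adjusted p = 0.728).

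The share of IL34 in the sum of both ligands was higher in the H8 than in the H24 libraries. IL34 made up 16.4%, 6.78% and 4.82% of the summed FPKM of CSF1 and IL34 in the NC libraries, 15.7%, 16.03% and 23.5% in H8, and 9.01%, 10.6% and 5.84% in H24. All H8 shares were above all H24 shares, and NC overlapped both. With 3 libraries against 3, a two-sided exact permutation test cannot go below p = 0.1, so such ratios are given as values only.

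CSF1R, the receptor tyrosine kinase of both ligands, was at 5.60, 5.03 and 4.72 FPKM in NC, 17.1, 3.58 and 8.66 in H8, and 27.6, 23.3 and 119 in H24. The H8 libraries disagreed with each other, since replicate 2 lay below all of NC and the others above. In H24/NC the log2 fold change was 3.46 ± 0.68, or 11.0-fold (adjusted p = 0.132). Without H24 replicate 3 it was smaller but more precise, 2.29 ± 0.20 or 4.88-fold (adjusted p = 0.00460). In H8/NC it was not called (1.04 ± 0.46, adjusted p = 0.350). It was at 0.37 without H8 replicate 1, and was called without H8 replicate 2 (1.41, adjusted p = 0.133). In H24/H8 it was called at 2.36 ± 0.79 (adjusted p = 0.341), but not without H24 replicate 3 (1.23, adjusted p = 0.476), H8 replicate 2 (1.99, adjusted p = 0.663) or H8 replicate 3 (2.26, adjusted p = 0.567). The level of CSF1R exceeded that of 68.6% to 71.3% of the table's genes in NC and of 91.6% to 98.5% in H24.

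CSF1R lies at chr2:151099084-151129407 on the minus strand. Its 3' end overlaps the oppositely oriented HMGXB3 by 4047 bp, and HMGXB3 was not called in H24/NC (log2 fold change 0.09, adjusted p = 0.886) or H8/NC (-0.67, adjusted p = 0.206). The next gene on the same strand is PDGFRB, a related receptor kinase of smooth muscle cells and pericytes. PDGFRB was at 90.4, 99.4 and 106 FPKM in NC and 103, 162 and 70.9 in H24 and was not called (0.16, adjusted p = 0.873).

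Relative to its ligand, the receptor stood higher in H24. The ratio of CSF1R to CSF1 in FPKM was 0.649, 0.425 and 0.409 in NC, 1.66, 0.214 and 1.12 in H8, and 1.13, 1.21 and 1.89 in H24. The H24 ratios were all above the NC ratios, and H8 held both the lowest ratio and one above H24 replicates 1 and 2.

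**Figure D2:**
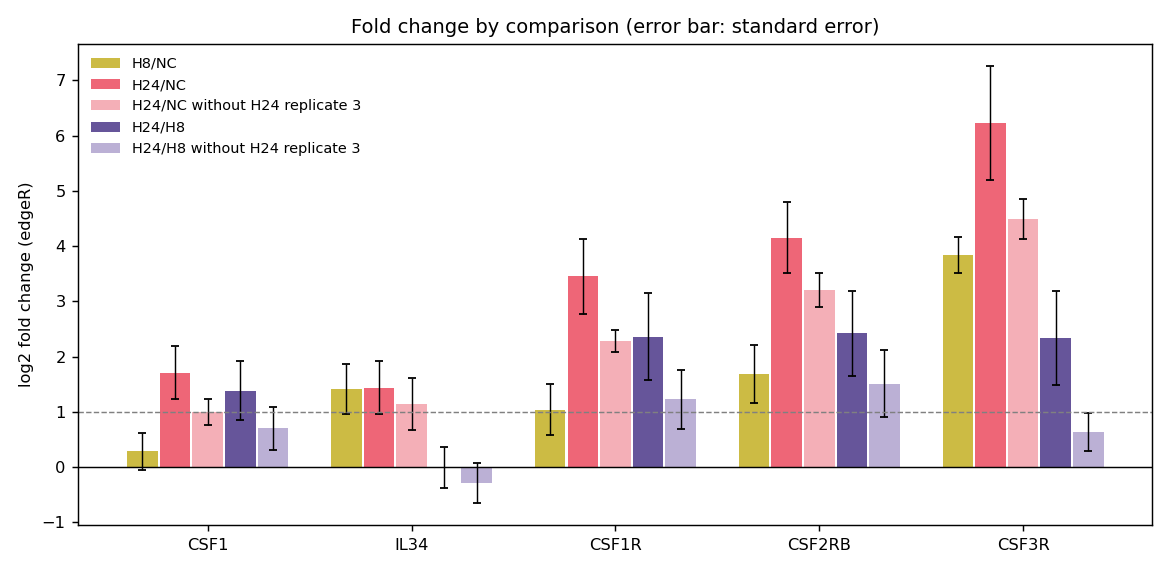
Log2 fold change from edgeR with its standard error for each family gene in H8/NC, H24/NC and H24/H8, and for the comparisons with H24 also without H24 replicate 3 (the dashed line marks a log2 fold change of 1). CSF3R has the tallest bars against NC, 3.84 in H8 and 6.23 in H24, and IL34 is the gene with about equal bars for both (1.42 and 1.44).

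CSF2RB, the common beta chain of the GM-CSF, interleukin-3 and interleukin-5 receptors, was at 0.698, 0.519 and 0.584 FPKM in NC, 3.45, 0.776 and 1.13 in H8, and 4.19, 6.99 and 21.2 in H24. The 3 groups did not overlap. In H24/NC the log2 fold change was 4.16 ± 0.65, or 17.8-fold (adjusted p = 0.132), and without H24 replicate 3 it was 3.21 ± 0.31 (adjusted p = 0.00516). In H8/NC it was called at 1.69 ± 0.53 (adjusted p = 0.239), with H8 replicate 1 well above the others. Without that library the value was 0.80 (adjusted p = 0.350), under the fold threshold. In H24/H8 it was called with H24 replicate 3 (2.42 ± 0.76, adjusted p = 0.341) and without it (1.51, adjusted p = 0.452), but not without H8 replicate 2 (2.09, adjusted p = 0.663) or H8 replicate 3 (2.16, adjusted p = 0.567). CSF2RB lies at chr5:10814008-10840808 on the minus strand and overlaps no other gene. Its neighbour on the same strand is NCF4, a subunit of the phagocyte NADPH oxidase, at a log2 fold change of 4.03 in H24/NC (adjusted p = 0.132).

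One row is described in the table as a GM-CSF receptor alpha-like gene (ENSSSCG00000032135, chrY:5020143-5036300). It is no member by name, was picked after its values were seen, and may share reads with a near-identical copy on chromosome X. It was at 0.694, 0.499 and 0.522 FPKM in NC, 5.61, 0.684 and 1.15 in H8, and 6.77, 8.41 and 51.0 in H24. All H24 libraries were above all others, and H8 replicate 2 lay within the NC range. In H24/NC the log2 fold change was 5.25 ± 0.91 (adjusted p = 0.132), and 3.71 ± 0.34 without H24 replicate 3 (adjusted p = 0.00514). In H8/NC it was 2.22 ± 0.76 (adjusted p = 0.264). The ratio of CSF2RB to this row was 1.01 to 1.12 in NC, 0.615 to 1.14 in H8 and 0.415 to 0.832 in H24, where all libraries were below all of NC.

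CSF3R, the G-CSF receptor, showed the largest fold change of the 5 genes against NC at both times in the edgeR fits given here. It was at 0.301, 0.232 and 0.233 FPKM in NC, 4.32, 2.21 and 3.65 in H8, and 7.28, 4.55 and 46.8 in H24. The 3 groups did not overlap. In H8/NC the log2 fold change was 3.84 ± 0.33, or 14.3-fold (adjusted p = 0.0206). CSF3R was thereby the third-ranked gene by p and 1 of only 4 genes of 14336 (0.0279%) past the adjusted threshold in H8/NC. Leaving out any one library kept the value between 3.63 and 4.02, with adjusted p between 0.0191 and 0.168. The adjusted call ended without NC replicate 1 (0.108), NC replicate 2 (0.168) or NC replicate 3 (0.103).

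In H24/NC CSF3R was at a log2 fold change of 6.23 ± 1.03, or 75.3-fold (adjusted p = 0.132). H24 replicate 3 held the highest level, and without it the value was 4.49 ± 0.36, or 22.5-fold (adjusted p = 0.00460). In H24/H8 the call also rested on that library, with 2.34 ± 0.85 (adjusted p = 0.341) and 0.64 without it (adjusted p = 0.529). It ended likewise without H8 replicate 1 (2.53), H8 replicate 2 (2.14) or H8 replicate 3 (2.35), with adjusted p between 0.499 and 0.663. The gene lies at chr6:92550075-92562431 on the minus strand and overlaps no other gene. Its same-strand neighbour MRPS15, which encodes a mitochondrial ribosomal protein, was not called in H8/NC (0.12, adjusted p = 0.781).

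Relative to CSF1R, CSF3R stood higher in both high-fat groups. The ratio of CSF3R to CSF1R was 0.0537, 0.0462 and 0.0494 in NC, 0.252, 0.617 and 0.421 in H8, and 0.264, 0.196 and 0.393 in H24. Every high-fat library was above every NC library, and H8 and H24 overlapped. H8 replicate 2, whose CSF1R and macrophage markers were near the NC level, had the highest ratio of all.

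**Figure D3:**
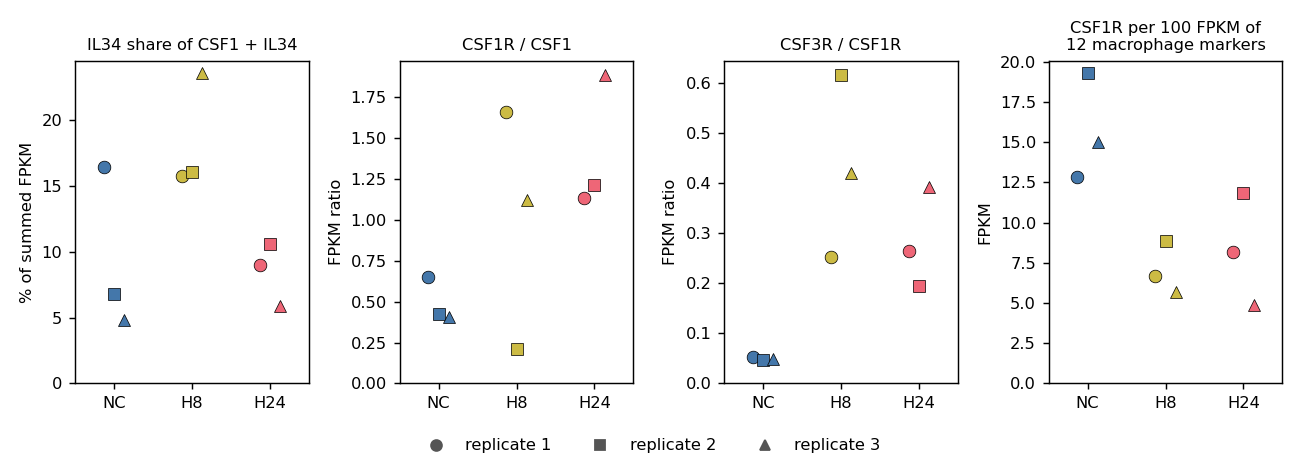
Ratios within each library by group, from left to right the IL34 share of CSF1 plus IL34 (%), CSF1R to CSF1, CSF3R to CSF1R, and CSF1R per 100 FPKM of 12 summed macrophage markers. CSF3R to CSF1R is 0.0462 to 0.0537 in NC and at least 0.196 in every high-fat library. CSF1R per summed macrophage marker FPKM is higher in NC (12.8 to 19.3) than in H8 (5.71 to 8.84) or H24 (4.86 to 11.8).

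Most markers of macrophages were called higher in H24/NC and in H8/NC. Beside this and the following lists, the shares of all genes called higher were 9.95% in H24/NC, 6.49% without H24 replicate 3 and 5.11% in H8/NC. Of 12 macrophage markers, 11 were called higher in H24/NC (median log2 fold change 4.83) and 10 without H24 replicate 3 (2.81). In H8/NC 7 of 11 tested were called higher (1.83). The scavenger receptor MSR1 was at a log2 fold change of 5.50, C1QC at 5.09 and C1QB at 4.94 in H24/NC (adjusted p = 0.132 for each), at 3.69, 3.33 and 3.28 without H24 replicate 3, and at 2.68, 2.22 and 2.29 in H8/NC. C1QB and C1QC encode chains of complement C1q. The 12 markers summed to 26.0 to 43.7 FPKM in NC, to 255, 40.5 and 152 in H8, and to 338, 197 and 2451 in H24. None of the 12 was at 0 in all libraries of a group.

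CSF1R was high in the libraries where these sums were high, and H8 replicate 2 was the lowest H8 library in both. Relative to the summed markers, CSF1R was lower in the high-fat groups, and the sum is set mostly by the markers with the highest FPKM. Per 100 FPKM of the summed markers, CSF1R was at 12.8, 19.3 and 15.03 in NC, 6.71, 8.84 and 5.71 in H8, and 8.15, 11.8 and 4.86 in H24. Every high-fat library was below every NC library. The ratio of CSF1R to CD68, a macrophage lysosomal protein, was likewise 0.899 to 1.15 in NC, 0.369 to 0.663 in H8 and 0.193 to 0.601 in H24. CD68 was taken as a single reference after its values were seen, and a lower CSF1R did not hold against every marker. CD14, MRC1 and CD80 had log2 fold changes of 3.35, 2.09 and 0.55 in H24/NC, below the 3.46 of CSF1R. The remaining markers of the list were above it. The part of macrophage number in the CSF1R and CSF2RB results was not tested.

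Markers of neutrophils were at low FPKM in NC and H8. Of 12 names 9 had a row, and these summed to 0.962 to 1.23 FPKM in NC, to 0.346 to 0.933 in H8, below every NC library, and to 2.17, 1.25 and 21.9 in H24. MPO, which encodes the granule enzyme myeloperoxidase, was at 0 in every library but H24 replicate 3 (0.626 FPKM). S100A8, a calprotectin subunit, was at 0 in all H8 libraries. ELANE, neutrophil elastase, was at 0.473 to 0.603 FPKM in NC and 0.0642 to 0.119 in H8. The lower sums in H8 rested mainly on ELANE, and without it the sums of NC and H8 overlap. In H8/NC 3 markers could be tested, of which 1 was called higher and 1 lower. In H24/NC 3 of 7 tested were called higher (median log2 fold change 4.89), and 1 of 5 without H24 replicate 3 (0.40). MPO and S100A12 passed the filter on low values only through that library. MPO, S100A8, S100A12 and ELANE were picked after their values were seen. The part of neutrophil number in the CSF3R results was not tested.

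**Figure D4:**
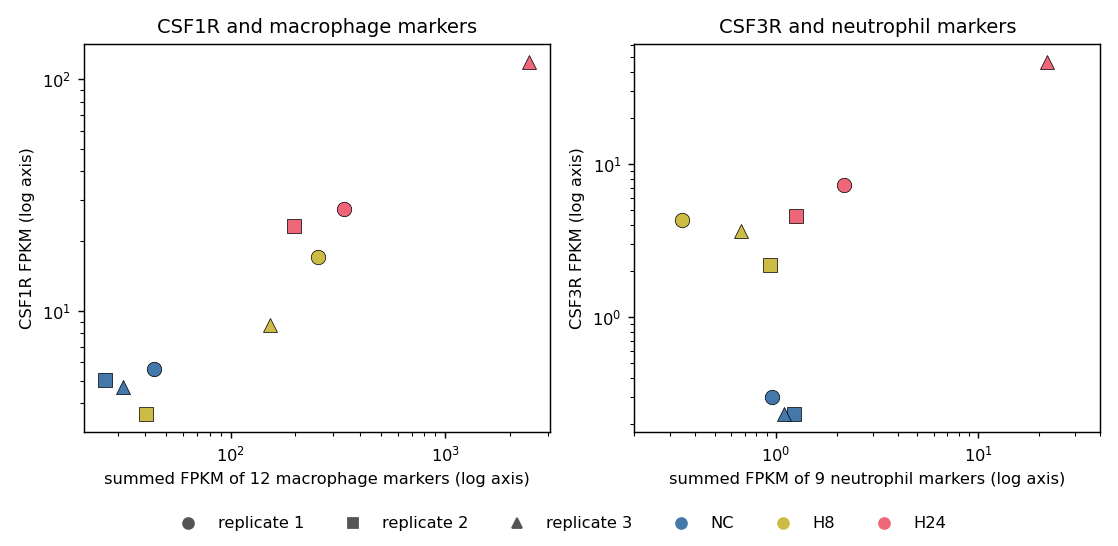
CSF1R against the summed FPKM of 12 macrophage markers and CSF3R against that of 9 neutrophil markers, 1 point per library on log axes (colours give the group, symbols the replicate). CSF1R rises along the macrophage sum, from 26.0 to 2451 FPKM. The 3 H8 libraries have CSF3R of 2.21 to 4.32 at neutrophil sums of 0.346 to 0.933. These sums lie below those of NC mainly through ELANE.

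Of the other ligands and receptors of the family with a row under their names, all but SDC1 were at no more than 1.25 FPKM in any library. CSF2, which encodes GM-CSF, was at 0 in all NC and H24 libraries and at 0, 0.120 and 0.0544 FPKM in H8. CSF3, which encodes G-CSF, was at 0.159, 0.610 and 0.807 FPKM in NC, 0.0197, 1.25 and 0.270 in H8, and 0.822, 1.08 and 0.376 in H24. The groups overlapped, and CSF3 was not called in H24/NC (log2 fold change 0.50 ± 0.77, adjusted p = 0.825) or H8/NC (0.16 ± 1.20, adjusted p = 0.967). IL5, its receptor chain IL5RA and PTPRZ1, a second receptor of interleukin-34, were each at no more than 0.175 FPKM in any library. SDC1, a syndecan that also binds interleukin-34, was at 1.29 to 3.99 FPKM in NC and 2.72 to 5.69 in H24 and was not called (0.65, adjusted p = 0.619). The names IL3 and CRLF2 had no row.

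Some relatives of CSF1R were called. Of 8 class III receptor kinases and their ligands 3 were called higher in H24/NC (median log2 fold change 1.18), against 9.95% of all genes tested. All 8 had a log2 fold change above 0. Without H24 replicate 3 the number called was 3 again, and it was 0 of 7 in H8/NC (0.05). PDGFB, a mitogen of smooth muscle cells, rose by a log2 fold change of 2.12 in H24/NC (adjusted p = 0.132) and its receptor gene PDGFRA by 1.49 (adjusted p = 0.163), with 1.83 and 1.20 without H24 replicate 3. KITLG, the ligand of KIT, was at 0.86 and not called (adjusted p = 0.496).

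Genes that act below the receptors changed in part. Of 24 genes of proximal signalling, 10 were called higher in H24/NC (median 0.83), 8 without H24 replicate 3 (0.69) and 5 in H8/NC (0.17), and none was called lower in these comparisons. The adaptor TYROBP and the kinase BTK, both found mainly in blood cells, were at 4.97 and 4.79 in H24/NC (adjusted p = 0.132 for each), at 3.29 and 3.21 without H24 replicate 3 (adjusted p = 0.00516 and 0.0269), and at 1.96 and 2.32 in H8/NC. The broadly expressed STAT3 and STAT5B, picked after their values were seen, were at -0.20 (adjusted p = 0.852) and -0.07 (adjusted p = 0.925) in H24/NC.

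Feedback regulators and target genes of the receptors were mixed. Of 15 tested, 4 were called higher in H24/NC (median 0.20), 2 without H24 replicate 3 (-0.0035) and 3 in H8/NC (0.75). The shares of all genes were 9.95%, 6.49% and 5.11%, and counts this small are given as values only. The phosphatase genes INPP5D and PTPN6, which encode SHIP1 and SHP-1 of blood cells, rose by log2 fold changes of 3.79 and 4.34 in H24/NC (adjusted p = 0.132 and 0.133), and by 2.76 and 2.56 without H24 replicate 3 (adjusted p = 0.00726 and 0.0127). SOCS1, an inhibitor of JAK kinases, was at 1.41 (adjusted p = 0.356), and was not called without H24 replicate 3 (1.15, adjusted p = 0.611).

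Most myeloid transcription factors and osteoclast genes were called higher. Of the transcription factors, 8 of 11 were called higher in H24/NC (median 2.87), 7 without H24 replicate 3 (1.76) and 6 of 10 in H8/NC (1.52). RUNX1 was at 3.05 (adjusted p = 0.129), IRF8 at 4.46 and EGR2 at 1.96 in H24/NC, and these 3 factors of blood cell and macrophage development were at 1.51, 2.11 and 0.44 in H8/NC, where EGR2 was not called (adjusted p = 0.644). Without H24 replicate 3 their H24/NC values were 2.51, 3.12 and 1.72. Osteoclasts are bone-resorbing cells that need CSF1R, and many of their genes are shared with macrophages. Of this list 10 of 10 were called higher in H24/NC (median 6.95), 7 of 9 without H24 replicate 3 (3.95) and 7 of 8 in H8/NC (2.26). DCSTAMP, OSCAR and CALCR had NC means of 0.0262, 0.0214 and 0.0395 FPKM. They passed the filter on low values in H24/NC only through H24, and OCSTAMP only through H24 replicate 3. In H8/NC, OSCAR and CALCR passed it only through H8. Such genes could hardly be called lower, so their calls add little to these counts. MMP9, a gelatinase, was at 0.352, 0.174 and 0.375 FPKM in NC, 2.39, 1.09 and 1.80 in H8, and 13.05, 14.7 and 437 in H24. TNFRSF11B rose by 2.44 in H24/NC (adjusted p = 0.126), with 2.54 without H24 replicate 3. It encodes osteoprotegerin, a RANKL decoy receptor, and is listed as a regulator of osteoclasts, not as a marker of them. In H24 it was at 43.1, 38.7 and 32.2 FPKM, lowest in replicate 3. CALCR, the calcitonin receptor gene, rose by 6.14 (adjusted p = 0.132), and by 3.95 (adjusted p = 0.0328) without that library. MMP9, at 9.001 in H24/NC (adjusted p = 0.132), was at 5.51 without it (adjusted p = 0.00460).

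**Figure D5:**
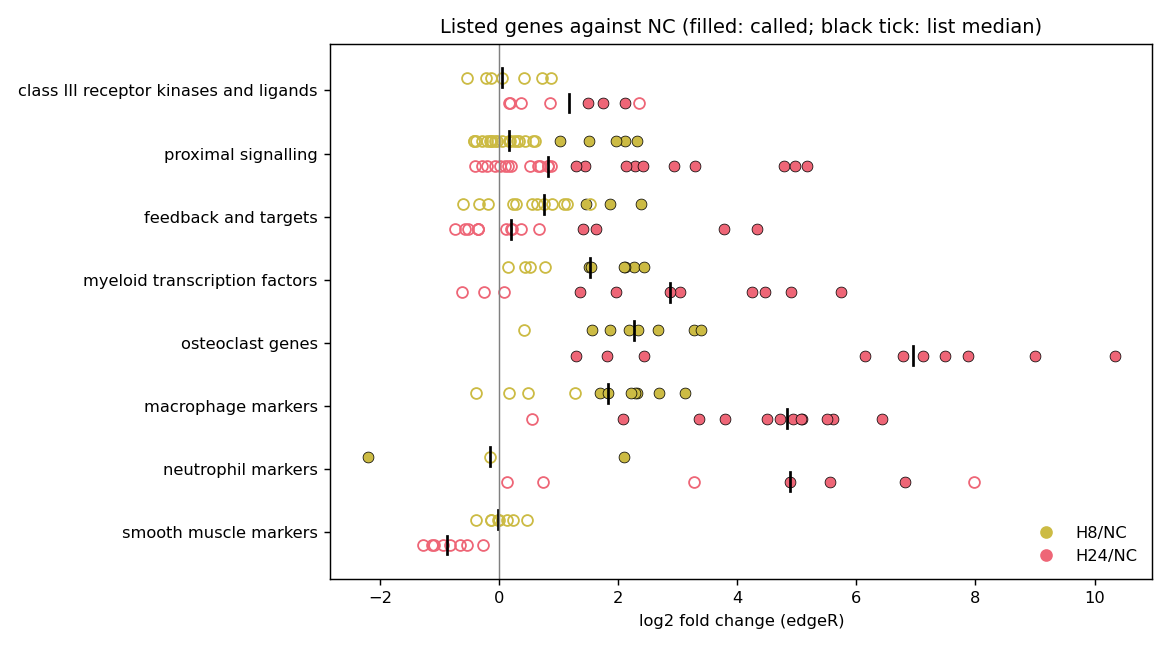
Log2 fold change of the tested genes of 8 lists, named on the vertical axis, in H8/NC and H24/NC, 1 circle per gene (filled where called, black ticks at the list medians). Osteoclast genes have the highest median in H24/NC (6.95), followed by neutrophil (4.89) and macrophage markers (4.83). Without H24 replicate 3, which is not drawn, these medians are 3.95, 0.40 and 2.81. Proximal signalling is near 0 in H8/NC (0.17), and smooth muscle markers lie left of 0 in H24/NC with 0 of 8 called.

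The genes most like each member were taken by Pearson's r of log2(FPKM + 0.1) over the 9 libraries, among 9572 named genes whose mean FPKM reached 1. These values describe the libraries and carry no test, since the groups and H24 replicate 3 are shared by all genes. CSF1R was most like IRF5 (r = 0.993, and 0.998 over the 8 libraries without H24 replicate 3), RASGRP4 (0.992 and 0.981) and ITGAM (0.991 and 0.978). CSF2RB was most like PIK3R5 (0.989 and 0.991), INPP5D (0.986 and 0.973) and CYTH4 (0.982 and 0.966). CSF3R was most like the complement genes C3 (0.990 and 0.984) and C2 (0.984 and 0.977) and like ISG20 (0.984 and 0.973). CSF1 was most like FKBP11 (0.976 and 0.927), PTGER4 (0.973 and 0.921) and NR1H3 (0.969 and 0.906), and IL34 like NT5DC2 (0.945 and 0.938), RNF217 (0.936 and 0.918) and UBXN2B (0.924 and 0.906).

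Among the family genes themselves, CSF1R and CSF2RB were the most alike pair (r = 0.973 over 9 libraries, 0.951 over 8). CSF3R had an r of 0.878 with CSF1R and 0.905 with CSF2RB (0.764 and 0.823 over 8). The ligands were the least alike, at 0.538 for CSF1 with IL34 and 0.305 over 8. CSF1 with CSF1R fell from 0.796 to 0.468 without H24 replicate 3, while IL34 had its highest r with CSF3R (0.835 and 0.794).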

How the data were processed

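RNA of the abdominal aorta was sequenced as poly(A) paired-end libraries (3 in each of 3 groups). The authors aligned them to Sscrofa11.1 (HISAT 2.0) and deposited FPKM values from StringTie 1.3.0 for 21357 genes, of which 5119 are named by their own ID. The deposited table also holds whole-number estimated counts (expected counts), how they were derived being not given in the sources used here, and likewise the strand setting. The processing notes in the labels also list Bowtie 0.12.2 and a mouse genome build without a role, and the extraction label speaks of an adipose type, whereas the tissue is given as abdominal aorta. No sequencing batch is given.

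Counts were tested on the whole table with edgeR 4.0.16 in R 4.3.3 (two-sided quasi-likelihood test with a dispersion trend, TMM normalization, genes averaging 0.1 FPKM or more in the libraries compared). P-values were adjusted by Benjamini-Hochberg over all genes tested. Called means a log2 fold change beyond 1 with an unadjusted p under 0.05. Alternatives used other filters, scalings and fits, DESeq2 1.42.0, and limma 3.58.1 on log2(FPKM + 0.1) and log2(FPKM + 1). The scripts were tested on simulated data. No libraries agreed within sampling noise. That the libraries are separate pigs is taken from the study's methods for NC and H24, and for H8 p-values measure the spread between its libraries. A floor of 3 counts covers counting error only.

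The members and 18 gene lists were chosen with earlier results of these data known. Of 177 listed genes 160 had a row, 2 of them through a reference table of gene names. Of each list, at most 3 genes with the smallest p in H24/NC and a mean FPKM of at least 1 were named, with all further cytokines and receptors of the family, and for each member the 3 genes with the highest Pearson's r. Other genes named were neighbours or were picked after their values were seen. One gene that this rule would name is not reported here.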

Additional observations from a re-analysis of the deposited data

How the results depend on the processing

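Of 255 values recomputed under 17 alternatives for each gene and comparison, 214 kept direction and call, 25 lost the call, 4 gained it and 12 changed sign. Members called in H24/NC numbered 4 to 5 when 1 library was left out. In H8/NC they numbered 2 to 3 when 1 library was left out and 1 with limma on log2(FPKM + 1). In H24/H8 they numbered 0 to 4 when 1 library was left out (2 without H8 replicate 1, 1 without H8 replicate 2, 0 without H8 replicate 3 and 1 without H24 replicate 3). With the replicate number as a block they numbered 2 in H24/H8, where CSF1 (adjusted p = 0.520) and CSF3R (adjusted p = 0.487) were no longer called. With limma on log2(FPKM + 0.1) and log2(FPKM + 1), CSF3R in H24/H8 (1.80 and 1.60) and CSF2RB in H8/NC (1.17 and 0.68) lost their calls, as did IL34 in H24/NC (0.93) and H8/NC (0.79) with the latter. Deviations of same-numbered libraries had r from -0.049 to 0.082, and those of other pairs had r from -0.152 to 0.148. No pairing by number was seen, although 3 libraries per group cannot exclude one. The sign of IL34 in H24/H8, -0.01 as reported, turned positive with a filter at a mean FPKM of 1 (0.020), median-ratio scaling (0.0093), library size only (0.21), DESeq2 (0.0097), limma on log2(FPKM + 0.1) (0.18) and log2(FPKM + 1) (0.14), all 9 libraries in one fit (0.043) and the replicate block (0.0061), and with 1 library left out it ranged from -0.28 to 0.29. CSF1 in H8/NC ranged from -0.17 to 0.54 when 1 library was left out, and was negative without H8 replicate 2. CSF1R in H8/NC was called with DESeq2 (adjusted p = 0.200), with no filter (adjusted p = 0.392) and with no dispersion trend (adjusted p = 0.113). The adjusted call of CSF3R in H8/NC held in 11 of 17 alternatives. Beside the fits without 1 NC library, it ended with limma on log2(FPKM + 1) (adjusted p = 0.0608), the replicate block (0.109) and all 9 libraries in one fit (0.371). Scaling by library size only put the median log2 fold change of all genes at -0.13 in H8/NC and 0.24 in H24/H8. In H24/NC, DESeq2 put CSF1 (adjusted p = 0.0127), CSF1R (4.47e-06), CSF2RB (2.96e-09) and CSF3R (1.96e-11) past the adjusted threshold and IL34 at 0.0608. The causes were not tested. Depth was not short for the members, which had at least 50 counts in every library, and the SE of the 3 receptors in H24/NC was smaller without H24 replicate 3.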

Other observations

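Markers of further cell types stood as follows in the same fits. Of all genes, 9.95% were called higher in H24/NC, 6.49% without H24 replicate 3 and 5.11% in H8/NC. Called lower were 1.52% in H24/NC and 2.27% in H8/NC. With few genes per list, small counts are given as values only. Of 10 lymphocyte markers, 6 of 8 tested were called higher in H24/NC (median log2 fold change 4.31), 5 of 8 without H24 replicate 3 (2.96) and 3 of 6 in H8/NC (1.47). They summed to 6.30 to 8.15 FPKM in NC, to 24.0, 4.32 and 13.1 in H8, and to 41.9, 46.8 and 373 in H24. Of 7 dendritic cell markers tested 5 were called higher in H24/NC (1.76), 3 of 6 without H24 replicate 3 (1.21) and 1 of 6 in H8/NC (0.68). Of 5 mast cell, basophil and eosinophil markers, whose cells use the common beta chain, 2 were called higher in H24/NC (2.28), 2 of 4 without H24 replicate 3 (1.08) and 1 of 4 in H8/NC (0.79).

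Endothelial markers had 0 of 7 called in H24/NC (median -0.11, and 0.22 without H24 replicate 3) and H8/NC (-0.37), and erythroid markers 0 of 3 in both (0.33, 0.84 without that library, and 0.28). Smooth muscle markers had 0 of 8 called in H24/NC (-0.88, and -0.38 without H24 replicate 3) and H8/NC (-0.01). Fibroblast markers had 2 of 7 called higher in H24/NC (0.34, and 0.49 without that library) and in H8/NC (0.87). Adipocyte markers had 4 of 6 called lower in H8/NC (-2.03), with 1 higher and 1 lower of 7 in H24/NC (-0.49) and 1 higher and 0 lower without H24 replicate 3 (-0.42), and summed to 173 to 299 FPKM in NC, 117 to 201 in H8 and 138 to 198 in H24. A row described as CRLF2 on chromosome Y, picked after its values were seen, was at 0.0379, 0.0219 and 0.0323 FPKM in NC, 0.316, 0.125 and 0.0250 in H8, and 0.627, 1.32 and 3.03 in H24, where all libraries were above all of NC. Its log2 fold change in H24/NC was 5.68 ± 0.73, and 4.92 ± 0.56 without H24 replicate 3. With 11 to 16 counts per NC library, this row passed the filter on low values only through H24. It was too low to be tested in H8/NC. These fold changes are therefore given as values only.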
